A study of Rattus norvegicus with 18 samples.

Results

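The effect of bone morphogenetic protein (BMP) on rat spinal cord material was followed across all genes, by comparing 6 arrays of BMP-treated material with 6 control arrays. These 12 of the 18 arrays of the series were chosen by their labels alone. The BMP material was given 10 ng/mL of the factor and carries the entry "4d", read here as 4 days, whereas the control label gives no dose and no time. The other 6 arrays carry ciliary neurotrophic factor (CNTF), also at 10 ng/mL and with the same time entry, and are used only where a BMP difference is set against them. The titles are numbered 1 to 6 within each group, and a BMP array was paired with the control array of its number. Which BMP family member was used is not in the labels, nor is a strain, age, cell type or culture, and the words "14 NT" before each group's name were not interpreted. Nothing in the labels says that the numbers are separate animals or cultures, so a p-value reflects only the spread among these pairs of arrays, which may be technical. Whether the controls were kept as long as the BMP material is not given.

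BMPs are secreted ligands of the transforming growth factor beta (TGF-beta) family. They bind pairs of type I and type II receptor kinases, which phosphorylate the transcription factors Smad1, Smad5 and Smad9, and secreted antagonists such as Noggin and Chordin keep them from their receptors. In the developing spinal cord BMPs from the roof plate pattern its dorsal side, and in cultured glial precursors they are known to favour astrocytes over oligodendrocytes.

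A level is given here as the log2 of the deposited intensity plus 116.655, the 20th percentile of the whole table, and a difference is BMP minus control on that scale, with limma's moderated standard error after ±. The table's median intensity corresponds to a level of 9.75. The constant makes the differences of dim genes smaller than their ratio of intensities. In the paired limma fit, 3775 of 31042 probe sets passed an adjusted p of 0.05 (12.2%). Of these, 2170 (6.99%) were higher and 1605 (5.17%) lower with BMP, and 915 (2.95%) changed at least 2-fold, 657 of them upwards (2.12%) and 258 downwards (0.831%). Subtracting each array's median reverses that balance, with 33.5% of the calls higher in place of 57.5%, so the direction of small differences depends on the scaling. Among the 14217 genes that could be named, each through its brightest probe set, 1183 rose (8.32%) and 901 fell (6.34%). Without pair 2 the probe set count was 2456 and without pair 3 it was 2333, and when the arrays were not paired it was 1521.

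The size of the response differed between the pairs. Over the genes that rose, the median difference was 0.85 in pair 1, 0.79 in pair 2 and 0.75 in pair 3, against 0.56, 0.58 and 0.56 in pairs 4, 5 and 6. Over the genes that fell it was -0.56, -0.62 and -0.63 in the first 3 pairs and -0.41, -0.40 and -0.39 in the last 3. Of the 2084 called genes, 1874 had the same sign in 6 of 6 pairs and the remaining 210 in 5 of 6. On the first principal component, which held 26.2% of the variance of the 12 arrays, BMP arrays 1 to 3 lay at 53.7 to 57.5, BMP arrays 4 to 6 at 4.59 to 16.5 and the controls at -42.8 to -26.0. The sizes pair by pair are therefore given throughout, in the order of pairs 1 to 6.

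The 15 largest rises were, in order of size, Postn, Hspb1, Cryab, Ecrg4, Cytl1, Scg2, S100a11, Emp1, Ccn2, Anxa2, Pnoc, H19, Crym, Mybpc1 and Igf2, between 12.4-fold and 6.71-fold higher. In 14 of the 15 the largest difference was in pair 1, 2 or 3, and in 11 of 15 the BMP and control arrays did not overlap. That was so for 458 of the 2084 called genes and 3.45% of all named genes, and a choice by size favours it. Postn (periostin, a matrix protein) gained 6.24, 6.04, 3.88, 2.09, 1.59 and 1.98. Hspb1, a small heat shock protein that binds actin and unfolded protein, was at 8.28 to 11.52 on the control arrays (median 9.01) and at 11.59 to 14.95 with BMP (median 12.36). Its differences were 5.69, 6.65, 3.80, 1.74, 2.29 and 0.68, so that pair 2 gained most and pair 6 least (3.48 ± 0.70, limma adjusted p = 0.0117). Cryab, the related chaperone alpha B-crystallin, was at 8.92 to 9.73 without BMP (median 9.46) and at 10.95 to 15.23 with it (median 12.92), without overlap, and gained 4.88, 5.94, 4.24, 2.62, 1.44 and 1.42 (3.42 ± 0.56, limma adjusted p = 0.00495).

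**Figure D1:**
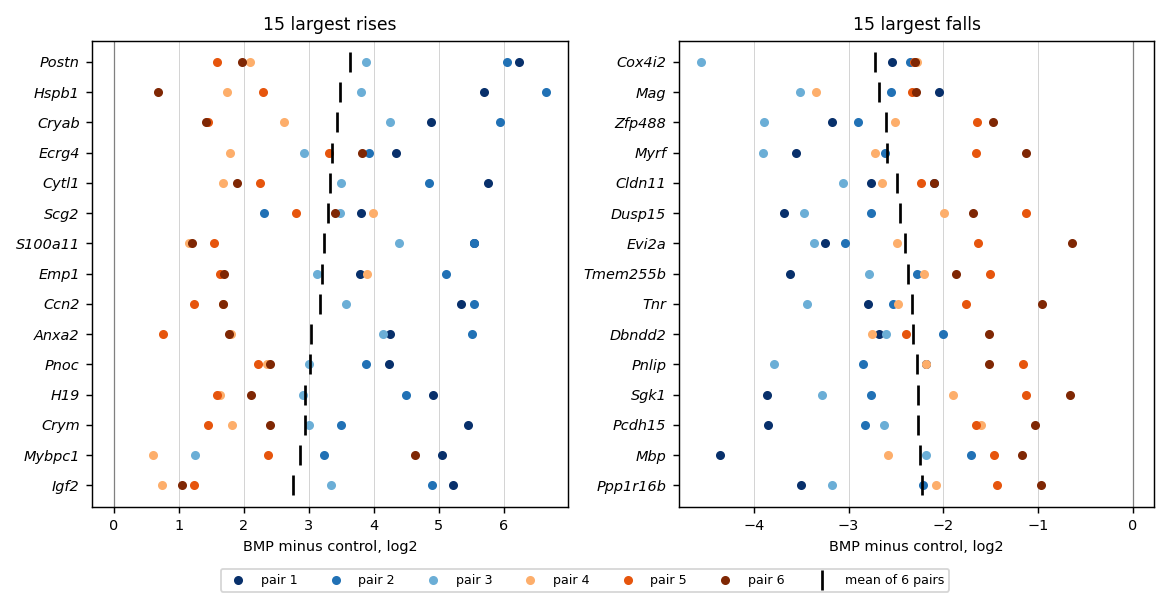
The 15 largest rises (left) and 15 largest falls (right), with the BMP minus control log2 difference of each pair as a coloured point and the mean of the 6 pairs as a black bar. In 14 of 15 rises and 14 of 15 falls the pair with the largest change is 1, 2 or 3, while the pairs of Scg2 lie between 2.31 and 3.98.

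All 15 of the largest rises gained in every pair, as the naming rule required. Among them Ecrg4, Scg2 and Pnoc gained 1.78 or more in each of pairs 4, 5 and 6. Ecrg4, which encodes a secreted peptide precursor known as augurin, was at 9.25 to 12.03 on the controls (median 10.31) and at 11.47 to 15.27 with BMP (median 14.16). The groups overlapped, yet each BMP array was above its own control, by 4.34, 3.93, 2.93, 1.78, 3.32 and 3.82 (3.35 ± 0.28, limma adjusted p = 0.000297). Scg2 (secretogranin II, a protein of dense-core vesicles and the precursor of secretoneurin) was at 7.48 to 9.82 on the controls (median 8.11), below the table median on all but 1 of these arrays, and at 10.52 to 12.94 with BMP (median 11.57). No BMP array overlapped a control. Its differences of 3.80, 2.31, 3.47, 3.98, 2.81 and 3.40 were of similar size in pairs 1, 3, 4 and 6 (3.30 ± 0.21, 9.82-fold, limma adjusted p = 9.36e-05). Pnoc, the precursor of the opioid-like peptide nociceptin, gained 4.23, 3.88, 3.0, 2.35, 2.21 and 2.39 from control levels of 8.32 to 9.55.

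The rise with the smallest p-value was that of Pcdh18, a protocadherin of the cell surface. It was at 11.43 to 12.43 on the controls (median 11.65) and at 12.75 to 13.82 with BMP (median 13.25), without overlap. Each pair gained nearly the same, 1.55, 1.66, 1.36, 1.27, 1.54 and 1.61 (1.5 ± 0.07, limma adjusted p = 1.87e-05). The 10 rises with the smallest p-values were Pcdh18, Bhlhe22, Kitlg, Scg2, Draxin, Ajap1, Rgmb, Dpysl5, Dync1i1 and Slc4a2, and in each of them the smallest pair held 0.549 to 0.764 of the largest, an evenness that a choice by small p-values favours. Kitlg, the ligand of the receptor tyrosine kinase Kit, was at 10.01 to 11.13 on the controls (median 11.01) and at 12.12 to 13.52 with BMP (median 12.93), and gained 2.15, 2.54, 2.20, 1.74, 1.55 and 2.11. All 3 other Kitlg probe sets rose too, by 1.15 to 2.31. Bhlhe22, a basic helix-loop-helix factor of dorsal spinal interneurons, varied widely between numbers, from 7.60 to 11.67 on the controls and from 9.97 to 13.24 with BMP. Within pairs its gain was 2.12, 2.16, 2.26, 2.22, 1.57 and 2.37 (2.12 ± 0.11, limma adjusted p = 2.85e-05), and without the pairing the call was lost.

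**Figure D2:**
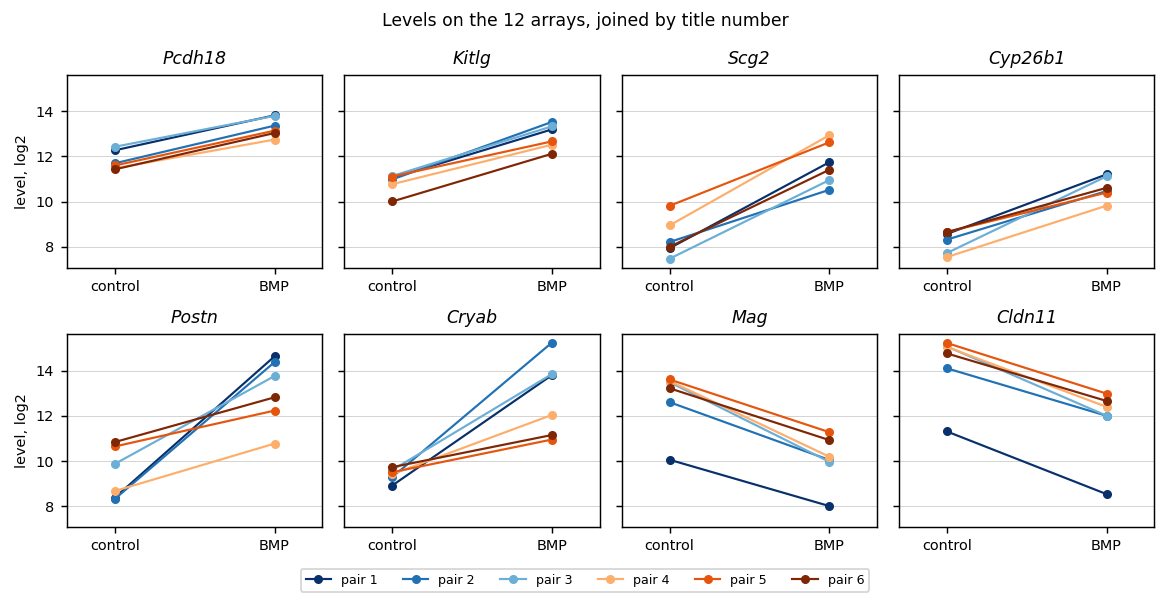
Levels (log2 of intensity plus 116.655) of 8 genes on the 6 control and the 6 BMP arrays, joined by title number. The lines of Pcdh18 and Kitlg run nearly parallel, those of Postn and Cryab fan out from pairs 4, 5 and 6 to pairs 1 and 2, and those of Mag and Cldn11 fall in parallel from unequal control levels.

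The upstream sequences of 3 genes that hold the palindrome GGCGCC are shown, from a risen gene, a risen guidance gene and a fallen gene. Each is given as 250 bases before the transcript start in RefSeq's table for the rat build GRCr8. Most promoters of the changed genes counted below lack this palindrome, so the 3 are not typical of them. The palindrome GGCGCC, a core sequence bound by BMP-activated Smad proteins, is in capitals. It lies 97 bases before the start in Scg2 (chr9:88256867-88257116, minus strand), 152 before in Draxin (chr5:163846610-163846859, minus strand) and 209 before in Dusp15 (chr3:161879251-161879500, minus strand).
Scg2: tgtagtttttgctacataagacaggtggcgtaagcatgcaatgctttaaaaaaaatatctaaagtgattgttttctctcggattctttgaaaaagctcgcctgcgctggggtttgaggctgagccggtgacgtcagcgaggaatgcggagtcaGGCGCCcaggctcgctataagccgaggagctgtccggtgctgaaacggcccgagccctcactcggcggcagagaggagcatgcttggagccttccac
Draxin: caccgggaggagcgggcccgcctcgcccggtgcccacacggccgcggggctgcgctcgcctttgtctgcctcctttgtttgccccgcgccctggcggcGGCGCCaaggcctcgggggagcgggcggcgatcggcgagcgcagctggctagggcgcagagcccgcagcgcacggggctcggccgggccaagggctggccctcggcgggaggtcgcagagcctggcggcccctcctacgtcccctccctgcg
Dusp15: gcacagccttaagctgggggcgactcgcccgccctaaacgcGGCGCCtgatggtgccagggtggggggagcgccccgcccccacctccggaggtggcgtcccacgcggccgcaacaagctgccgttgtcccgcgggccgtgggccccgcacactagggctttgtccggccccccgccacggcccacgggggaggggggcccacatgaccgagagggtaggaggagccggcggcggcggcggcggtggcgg
Over the 27457 promoters of that table, from 250 bases before to 50 after the start, 11.8% held GGCGCC. Promoters were found for 11 of the 15 largest rises, of which 2 held it (Scg2 and Mybpc1), and for 11 of the 15 largest falls, of which 1 did (Dusp15). Among the 10 rises with the smallest p-values it was in 2 of 8 (Scg2 and Draxin), and among the 10 falls with the smallest p-values in 2 of 7 (Map7 and Larp6). GTCTAGAC, the palindrome of TGF-beta Smads, was in 0.215% of all promoters and in none of these sets. Both words read the same on either strand and neither contains the other, and a match is a description and not a binding site.

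Only 2 genes, Tac1 and Cyp26b1, moved from below the 40th percentile of the table on all controls to above its median on all BMP arrays, and none moved the other way. Cyp26b1 degrades retinoic acid, the vitamin A derivative that patterns the spinal cord. It was at 7.55 to 8.66 without BMP (median 8.45) and at 9.82 to 11.21 with it (median 10.54), and gained 2.63, 2.15, 3.39, 2.27, 1.74 and 1.96 (2.36 ± 0.21, 5.12-fold, limma adjusted p = 0.000364). Its other probe set rose by 1.33. Tac1, the precursor of the sensory peptide substance P, was at 7.74 to 8.88 (median 8.65) and at 10.02 to 11.10 (median 10.61), and gained 1.71, 2.60, 2.74, 2.29, 1.15 and 2.25 (2.12 ± 0.21, limma adjusted p = 0.000526). In the list of retinoic acid handling as a whole, 3 of 24 measured members rose (12.5%) and 1 fell (4.17%). Of all named genes 8.32% rose and 6.34% fell. Crabp1 and Aldh1a1, which bind retinoic acid and make it, rose by 1.11 and 1.36 with 1 pair each of the opposite sign, and Aldh1a1 lost its call without pair 1, 2 or 3 (adjusted p up to 0.0929 in the limma fit). The retinoic acid receptor Rara fell by 0.46, a call lost without any 1 of pairs 1 to 5 (adjusted p up to 0.0638).

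Secreted neuropeptides and granins were mostly higher where they were called. Of 38 measured members 11 rose (6 with dim probe sets left out) and 1 fell, and the median difference was 0.35 against 0.0054 over all named genes. The rises include Igfbp5, a binding protein that is also counted in the insulin-like growth factor list. Beside Scg2 and Tac1 they included Npy (neuropeptide Y), which was at 8.35 to 10.34 on the controls (median 9.10) and at 10.95 to 12.30 with BMP (median 11.69), without overlap. Npy gained 3.95, 3.77, 1.19, 2.54, 1.51 and 1.52 (2.41 ± 0.37, limma adjusted p = 0.00353). Further risen members, named after their values were seen, were Crh (corticotropin-releasing hormone, 2.23 ± 0.40), Penk (proenkephalin, 1.78 ± 0.41) and Vgf (1.11 ± 0.18). Penk gained 3.52 in pair 2 and 0.06 in pair 6, and its call was lost without pair 2, 3 or 4 (adjusted p up to 0.0716). Resp18, an endocrine vesicle protein, was the member that fell, by 1.32. The granins Chga, Chgb and Scg3 differed by -0.0015, -0.13 and 0.04 and were not called.

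More genes of neurons and growing axons rose than fell. Of 35 proneural and neuronal transcription and splicing factors 12 rose and 2 fell. The 12 include Id2, an inhibitor of basic helix-loop-helix factors, and Sox11 and St18, which are also counted in the oligodendrocyte and glial list. Rbfox1, a neuronal splicing factor, was at 10.08 to 11.14 on the controls (median 10.59) and at 11.56 to 13.32 with BMP (median 12.25), and gained 1.25, 1.69, 2.32, 1.98, 1.80 and 1.27. Of its 5 other probe sets 2 rose, by 1.46 and 2.33, and 3 dim ones did not pass. Ebf1, a factor of early neuronal differentiation, rose by 1.07 ± 0.12, with pairs of 0.73 to 1.44. Celf4, Nhlh1, Neurod1 and Neurod6 rose by 1.53, 0.96, 1.12 and 0.86, the latter 2 named after their values were seen. The 2 that fell were Elavl3 (by 0.50), an RNA-binding protein of neurons, and Myt1 (by 1.12), a zinc finger factor of neurons and oligodendrocyte precursors. Without the pairing 3 of the 12 rises of this list remained called and both falls did.

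Of 54 axon guidance genes 16 rose and 3 fell, with a median of 0.28, and the rises were 9 without pair 3, 10 without pair 5 and 8 without the pairing. Draxin, a secreted repellent of spinal commissural axons, was at 10.04 to 12.50 on the controls (median 10.79) and at 11.31 to 14.00 with BMP (median 12.71). Its gains of 2.17, 1.58, 1.5, 1.27, 1.59 and 1.69 were called in the paired fit (1.63 ± 0.11, limma adjusted p = 9.36e-05) and not in the unpaired one. Slit1, a midline repellent, rose from 9.30 to 10.63 (median 10.43) to 11.17 to 12.63 (median 11.98) without overlap, by 1.83, 1.41, 1.15, 1.87, 2.36 and 2.08, so that pairs 5 and 6 gained most. Robo3, a receptor of commissural axons, rose by 1.73 ± 0.14, and Efna5, an ephrin ligand, by 0.97 ± 0.09 with pairs of 0.60 to 1.13. The semaphorin receptors Nrp2 and Nrp1 rose by 1.03 and 1.41, and the ligand Sema3c by 2.52, with 4.09 in pair 1 and 0.57 in pair 5, these 3 named after their values were seen. Dpysl5, a collapsin response mediator of growth cones, rose by 2.01 ± 0.14 (pairs 1.52 to 2.74), Dync1i1, a neuronal dynein subunit, by 1.99 ± 0.14 (1.34 to 2.45), and Dclk1, a microtubule kinase, by 0.81 ± 0.06 (0.57 to 0.94). Dclk1 lost its call when the median of its 4 probe sets was used. The 3 guidance genes that fell were Mag, Omg and Sema4a, the first 2 of them myelin inhibitors of axon growth, and the call of Sema4a was lost without any 1 pair (adjusted p up to 0.11). In the microtubule and axon growth list 9 of 42 rose and 6 fell, with a median of 0.0006, and without the pairing 5 rose and 5 fell. The falls were Tppp (by 1.83) and Map7 (by 1.86), tubulin-binding proteins known from oligodendrocytes, and Tubb4a, Dpysl4, Sncb and Kif3c.

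Synaptic and transmitter genes moved in both directions. Of 54 synaptic vesicle genes 10 rose (18.5%) and 5 fell (9.26%). The rises were 6 without pair 3 and the falls 3 without pair 1, 2 or 6. Syt4, a vesicle synaptotagmin, rose by 1.90 ± 0.21 from 9.58 to 10.77 to 11.44 to 12.79, and Rab3c by 1.59 ± 0.15, neither with overlap. Of 26 genes of GABA and glycine transmission 3 rose and 3 fell (11.5% each), and 5 fell without pair 5. Over all named genes the shares were 8.32% and 6.34%. Gad1, which makes GABA, was at 7.57 to 8.46 on the controls and at 9.0 to 12.08 with BMP, with gains of 3.85, 3.28, 3.62, 1.42, 1.5 and 1.98. Gad2, the other GABA-making enzyme, differed by 0.21 ± 0.21 and stayed below the table median on all 12 arrays. The glycine receptor subunits went opposite ways. Glra2, the embryonic alpha subunit, gained 1.51, 2.51, 3.83, 2.26, 2.15 and 2.28 (2.42 ± 0.25, limma adjusted p = 0.000598), while Glrb, the beta subunit, was at 13.48 to 14.67 (median 14.04) without BMP and at 11.24 to 13.34 (median 12.32) with it and changed by -2.23, -2.13, -2.31, -1.62, -1.41 and -0.91 (-1.77 ± 0.17, limma adjusted p = 0.000486). Another Glrb probe set fell by 1.77, and a dim one differed by -0.08 and was not called. The glycine transporter Slc6a9 fell by 1.25 ± 0.16.

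Receptors for other transmitters were called at close to the background, with 5 of 57 up (8.77%) and 3 down (5.26%), of which 1 was left without pair 1 or 2 and none without pair 3. Among those that rose, the adrenergic receptor Adra2a gained 2.20, 2.10, 2.09, 0.80, 1.98 and 1.51, the muscarinic receptor Chrm4 1.81, 1.90, 1.68, 0.85, 1.96 and 2.48, and the serotonin channel Htr3a 2.37, 2.02, 1.63, 0.67, 1.55 and 1.84. Pair 4 gained least in all 3. Of 69 voltage-gated channel genes 10 rose and 3 fell, and 24 of the 69 reached the table median in a group mean. The rises were 4 with dim probe sets left out and 4 without the pairing. Without pair 4 or 6 there was 1 fall. Scn9a, the sodium channel of sensory neurons, rose by 1.44 ± 0.23 at levels below the table median, and Kcnip3, a calcium-binding partner of potassium channels also known as DREAM, fell by 1.76 ± 0.20 without overlap.

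Among the genes of the BMP pathway itself, several antagonists and the coreceptor Rgmb rose, while the early target Id1 was not called. Of 20 measured inhibitors 7 rose (3 with dim probe sets left out) and 1 fell. Nbl1, a secreted BMP antagonist of the DAN family, was at 11.47 to 11.95 on the controls (median 11.75) and at 12.08 to 13.37 with BMP (median 13.17), without overlap, and gained 1.33, 1.44, 1.53, 0.47, 1.38 and 1.40 (1.26 ± 0.13, limma adjusted p = 0.000591). Chrdl2, a Chordin-like antagonist, gained 1.60, 1.96, 1.65, 0.57, 1.67 and 1.49 at levels of 7.89 to 10.41. Twsg1, a Chordin partner, rose by 0.36 ± 0.06, and Bmper, Bambi, Fstl1 and Sostdc1, named after their values were seen, by 1.2, 1.5, 1.25 and 1.02. Bambi lost its call without pair 2 or 6 (adjusted p up to 0.0525), Fstl1 without 1 or 3 (0.0568) and Sostdc1 without 1, 3 or 4 (0.0612). Skil, an intracellular repressor of Smads, fell by 0.65 ± 0.07, and Nog (Noggin) differed by 0.54 ± 0.16 with an adjusted p of 0.0614 in the limma fit. Among 12 receptors and coreceptors, Rgmb, a membrane-anchored BMP coreceptor, was at 11.09 to 12.90 (median 12.23) without and at 12.28 to 14.58 (median 13.67) with BMP, and gained 1.28, 1.64, 1.68, 1.74, 1.13 and 1.19 (1.44 ± 0.09, limma adjusted p = 9.84e-05). Its other probe set rose by 1.10. The type I receptor Acvr1 rose by 0.70 ± 0.10 and the type II receptor Acvr2b fell by 0.32 ± 0.08, the latter call lost without any 1 of pairs 1 to 5 (adjusted p up to 0.0739). Bmpr1a and Bmpr2 differed by 0.11 and 0.13 and were not called.

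Of 22 Smad mediators and early targets 3 rose (13.6%, against 8.32% of all named genes) and none fell. Smad9, a receptor Smad, rose by 1.15 ± 0.22, with gains of 2.20, 1.38, 0.70, 1.68, 0.33 and 0.59. Its other probe set, a dim one, differed by 0.53 and was not called. Atoh8, a helix-loop-helix factor induced by BMP in other tissues, rose by 0.84 ± 0.15. Id2, an inhibitor of basic helix-loop-helix factors, rose by 0.37 ± 0.08. These 3 calls were lost in the unpaired fit of the 12 arrays. Id1, among the best known early BMP targets, was at 14.60 to 15.35 on the controls (median 14.86) and at 13.21 to 15.15 with BMP (median 14.62). Its differences were 0.07, -0.68, -1.68, -0.02, -0.17 and -0.53 (-0.50 ± 0.20, limma adjusted p = 0.141). Id3 differed by -0.21 ± 0.22, Smad6 by 0.20 ± 0.20 and Smad7 by -0.08 ± 0.16, with signs that varied between pairs, and none was called. Among 12 ligands Bmp6, Inhba and Gdf10 rose, by 1.94, 0.68 and 1.05, and Bmp4 fell by 1.53. With dim probe sets left out no ligand was called as risen. Bmp4 differed by 0.28, -0.32, -3.06, -3.23, -1.49 and -1.39, and its call was lost without pair 3, 4, 5 or 6 (adjusted p up to 0.128). The Bmp6 call was lost without pair 3 (0.0506), and 3 other Bmp6 probe sets were not called. Inhba lost its call without pair 1, 2, 4 or 5 (up to 0.081) and Gdf10 without any 1 pair other than pair 2 (up to 0.113). The other Inhba probe set, a dim one, differed by -0.26 and was not called.

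Homeobox and other patterning genes rose in 17 of 60 cases and fell in 2. Hoxb3 was at 11.79 to 12.63 on the controls (median 12.24) and at 12.74 to 13.59 with BMP (median 13.03), without overlap, and gained 0.95, 0.65, 0.78, 0.99, 0.93 and 0.94 (0.87 ± 0.06, 1.83-fold, limma adjusted p = 0.00018). Hoxc9, which marks thoracic levels of the cord, gained 1.60, 1.11, 1.05, 1.09, 1.2 and 0.89, and the Hox cofactor Meis1 0.49, 0.45, 0.81, 0.47, 0.53 and 0.61. Hoxa5 rose by 0.47 ± 0.05. Most of the 17 were Hox genes, which set position along the body axis. Pax6 and Foxp1, factors of spinal progenitors and motor neurons named after their values were seen, rose by 0.57 ± 0.07 and 0.68 ± 0.09. The 2 falls were Nkx2-2 (by 1.88), a ventral progenitor and oligodendrocyte factor, and En2 (by 0.66), at levels below the table median, whose call was lost without any 1 pair other than pair 2 (adjusted p up to 0.0799). Foxj1 and Rfx2, the regulators of motile cilia, rose by 1.09 ± 0.18 and 1.08 ± 0.14. In the ciliary list 4 of 24 rose (16.7%, against 8.32% of all named genes) and none fell.

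Of 23 collagen chains 11 rose and 1 fell, of 41 other matrix proteins 19 rose and 1 fell, of 15 integrins 6 rose and of 31 actin and smooth muscle genes 8 rose, none of the last 2 lists falling. The 19 matrix rises were 11 without pair 1 and 7 without the pairing, and the 8 actin rises were 4 without pair 3 and 5 without pair 1, 2 or 6 or without the pairing. The 11 collagen rises were 8 to 11 with 1 pair left out and 7 without the pairing. The medians of the actin list were 0.69, 1.09, 0.63, 0.23, -0.04 and 0.14 over the pairs, and those of the matrix list 1.19, 1.42, 0.87, 0.45, 0.24 and 0.31. Col1a2, a chain of type I collagen, was at 9.18 to 10.85 on the controls (median 10.18) and at 11.49 to 14.38 with BMP (median 12.62), without overlap, and gained 3.96, 4.59, 2.63, 1.48, 1.76 and 1.22. Its other probe set rose by 2.42. Col5a2, a fibril-regulating chain, was more even, with 1.62, 1.32, 0.50, 1.44, 1.27 and 0.90, while Col16a1 fell by 0.41 and Tnr (tenascin R, a matrix protein of oligodendrocytes) by 2.33. Sparc, a collagen-binding glycoprotein, rose by 1.22 ± 0.17 without overlap, and Eln (elastin) and Fn1 (fibronectin), named after their values were seen, by 2.29 ± 0.38 and 1.36 ± 0.20. Mylk, the kinase of myosin light chain, gained 4.36, 3.35, 2.93, 0.79, 2.89 and 1.13, and Vcl (vinculin) 0.54, 0.84, 0.47, 0.42, 0.45 and 0.42. Itga3 and Itgb5 rose by 1.29 ± 0.14 and 1.37 ± 0.21 without overlap. The smooth muscle markers Acta2 and Myh11 differed by 1.13 ± 0.41 and -0.20 ± 0.24 and were not called.

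Genes of the S100 and annexin families rose in 10 of 22 cases and fell in none. Anxa2, which links membranes to actin, was at 9.53 to 11.99 on the controls (median 10.52) and at 12.61 to 15.03 with BMP (median 13.65), without overlap, and gained 4.24, 5.50, 4.14, 1.80, 0.75 and 1.77. The other Anxa2 probe set, a dim one, differed by 0.83 and was not called. S100a11 gained 5.54, 5.54, 4.38, 1.15, 1.54 and 1.19, and S100a4 0.75, 1.35, 0.99, 1.78, 2.10 and 0.68, so that S100a4 rose most in pairs 4 and 5. Emp1, a membrane protein of the claudin fold, gained 3.78, 5.12, 3.13, 3.89, 1.63 and 1.69. Among TGF-beta related genes 5 of 15 rose and 1 fell, a fall called with all pairs or without pair 4 only. The risen members included Ccn2 (connective tissue growth factor), which gained 5.34, 5.54, 3.57, 1.67, 1.24 and 1.68, and Tgfbi, which rose by 1.67 ± 0.27.

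**Figure D3:**
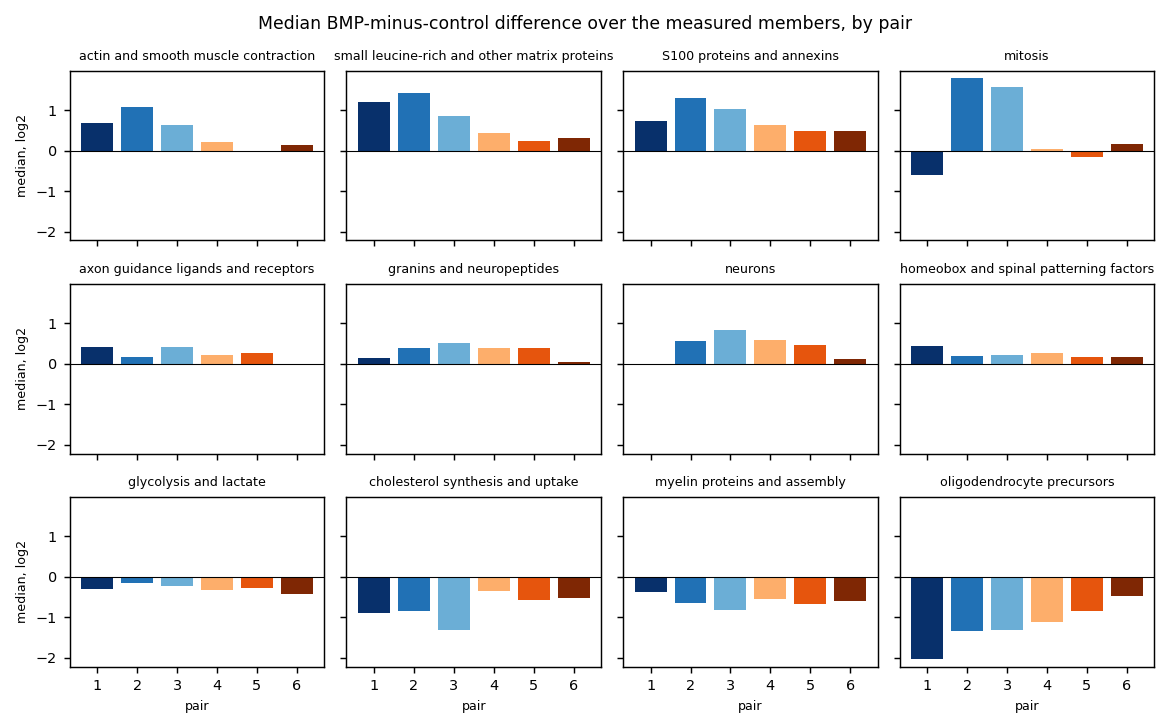
Median BMP minus control log2 difference over all measured members of 12 lists, by pair. The medians of the actin list run from 1.09 in pair 2 to -0.04 in pair 5, those of the mitosis list from -0.60 to 1.79, and those of the myelin list stay between -0.38 and -0.82.

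The 15 largest falls were Cox4i2, Mag, Zfp488, Myrf, Cldn11, Dusp15, Evi2a, Tmem255b, Tnr, Dbndd2, Pnlip, Sgk1, Pcdh15, Mbp and Ppp1r16b, between 6.60-fold and 4.69-fold lower. The groups did not overlap in 5 of these 15. That was so for 458 of the 2084 called genes and 3.45% of all named genes, and a choice by size favours it. Mag (myelin-associated glycoprotein) was at 10.06 to 13.61 on the controls (median 13.35) and at 8.01 to 11.28 with BMP (median 10.12). Control array 1 was far below the other 5, so the groups overlapped, but each pair fell, with differences of -2.05, -2.55, -3.52, -3.35, -2.33 and -2.29 (-2.68 ± 0.19, limma adjusted p = 0.000164). Cldn11, the claudin of myelin tight junctions, fell with differences of -2.77, -2.10, -3.06, -2.65, -2.24 and -2.10, from 11.31 to 15.22 to 8.54 to 12.98, with array 1 lowest in both groups (-2.49 ± 0.13, limma adjusted p = 2.85e-05), and lost the call in the unpaired fit of the 12 arrays. Dbndd2, a dysbindin-related protein, was at 12.49 to 13.66 and at 9.91 to 12.15, without overlap, and fell with differences of -2.68, -2.0, -2.60, -2.75, -2.40 and -1.52. Cox4i2, the hypoxia-linked isoform of a cytochrome c oxidase subunit, fell with differences of -2.54, -2.35, -4.56, -2.27, -2.31 and -2.30 while the general isoform Cox4i1, with a control mean of 15.88, differed by -0.11 ± 0.04 and was not called. Mbp (myelin basic protein) fell with differences of -4.35, -1.71, -2.18, -2.58, -1.47 and -1.17.

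Of 48 myelin genes 24 fell and 4 rose, and of 33 oligodendrocyte and glial transcription factors 13 fell and 6 rose, the latter count being 3 without pair 2, 3 or 5. Myrf, the regulator that starts myelin gene expression, was at 11.11 to 13.45 (median 12.85) and at 7.55 to 12.22 (median 10.18), and fell with differences of -3.56, -2.62, -3.90, -2.72, -1.66 and -1.12. Zfp488, a corepressor of that lineage, fell with differences of -3.18, -2.90, -3.89, -2.51, -1.64 and -1.47, and Tcf7l2, a Wnt effector of newly formed oligodendrocytes, by 1.0 ± 0.13 without overlap. Sox10 fell by 2.13 ± 0.30, named after its values were seen. Nfia and Nfix, nuclear factor I proteins of the glial switch, went the other way by 0.84 ± 0.08 and 0.67 ± 0.08, with pairs of 0.49 to 1.03 and 0.31 to 0.95, and all 3 Nfia probe sets rose. The 4 myelin list members that rose were Cryab, Aspa, Gpr37 and Nkain2, of which the last 3 lost their calls without any of several single pairs (adjusted p up to 0.07, 0.0836 and 0.0959). Of 25 genes of sphingolipid and galactolipid metabolism 4 rose (16%) and 3 fell (12%), with a median of -0.03. The shares over all named genes were 8.32% and 6.34%. The 4 rises were Cers6, Plpp1, St3gal5 and Psap. Without pair 1, 3 or 4 the rises were 2, as St3gal5 and Psap lost their calls (adjusted p up to 0.0761 and 0.0985 in the limma fit). The 3 that fell were enzymes of myelin galactolipids, Gal3st1 by 2.07 ± 0.21, Ugt8 by 1.90 ± 0.27 and Fa2h by 1.5 ± 0.23. Other members of the 10 falls with the smallest p-values were Tppp, Map7, Larp6, Rab33a, Rimbp2, Vegfa and Mif. In a mixture of cells, fewer cells of a type and less RNA per cell cannot be told apart.

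Of 25 cholesterol genes 17 fell and 3 rose, and of 31 genes of fatty acid and glycerolipid synthesis 12 fell and 1 rose, a rise lost without pair 1. Mvd, an enzyme of the mevalonate pathway, was at 11.72 to 12.15 on the controls (median 12.06) and at 10.57 to 11.62 with BMP (median 10.82), without overlap, and fell with differences of -1.47, -1.2, -1.52, -0.85, -0.88 and -0.53. Hsd17b7 and Sqle, of the same pathway, fell by 1.01 ± 0.13 and 0.66 ± 0.08, and the acetyl-CoA and acyl-CoA synthetases Acss2 and Acsl3 by 1.11 ± 0.13 and 1.18 ± 0.15, all without overlap. Acly, which supplies acetyl-CoA, fell little but evenly, with differences of -0.38, -0.45, -0.47, -0.26, -0.33 and -0.33. The exporter Abca1, which carries cholesterol out of cells, gained 1.81, 0.96, 1.2, 0.82, 1.54 and 1.26, and its 3 other probe sets rose by 1.25 to 1.32. Of 28 genes of fatty acid oxidation 9 rose and none fell, with a median of 0.11. Acadl, an acyl-CoA dehydrogenase, was at 13.39 to 13.65 and at 13.87 to 14.55, without overlap, and gained 1.04, 0.97, 1.0, 0.48, 0.56 and 0.75. Decr1 rose by 0.60 ± 0.07, and Cpt1a, the gatekeeper of mitochondrial uptake named after its values were seen, by 0.56 ± 0.09. Cholesterol falls numbered 15 to 19 and oxidation rises 5 to 10 over the settings that keep all pairs.

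Of 30 glycolytic genes 13 fell and 1 rose, of 19 of the citrate cycle 5 fell, and of 45 subunits of oxidative phosphorylation 7 fell, none of the last 2 lists rising. The glycolytic rise was lost without any 1 pair, the citrate cycle falls were 2 without pair 1 or 2 and 3 without pair 3 or 6, and the falls in oxidative phosphorylation were 3 without pair 1 or 4 and 4 without pair 2 or 3. Eno2, the neuronal enolase, fell with differences of -1.17, -0.51, -1.2, -0.96, -1.14 and -1.44 (-1.07 ± 0.11, limma adjusted p = 0.000563). Gpi, Pgk1 and Gys1 fell by 0.39 ± 0.05, 0.58 ± 0.08 and 0.55 ± 0.07. Vegfa, the vascular growth factor, was at 14.03 to 14.82 (median 14.42) and at 12.53 to 13.64 (median 13.45), without overlap, and fell with differences of -1.12, -1.5, -1.79, -0.79, -1.04 and -1.26. Apart from Cox4i2 the changes in respiratory subunits were small, as in Uqcrh (by 0.24) and Ndufb5 (by 0.23). Their count of falls was 3 after quantile normalization and 34 after subtracting array medians. That of 31 cytosolic ribosomal proteins, 4 here, was 0 and 23, so the number of falls called depends on the scaling. Without the pairing 1 of the glycolytic genes was called. Of 34 lysosomal genes 9 rose and none fell, the rises including Laptm4a (0.60 ± 0.06) and Grn (progranulin, 0.50 ± 0.07). Without the pairing 1 lysosomal gene rose.

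**Figure D4:**
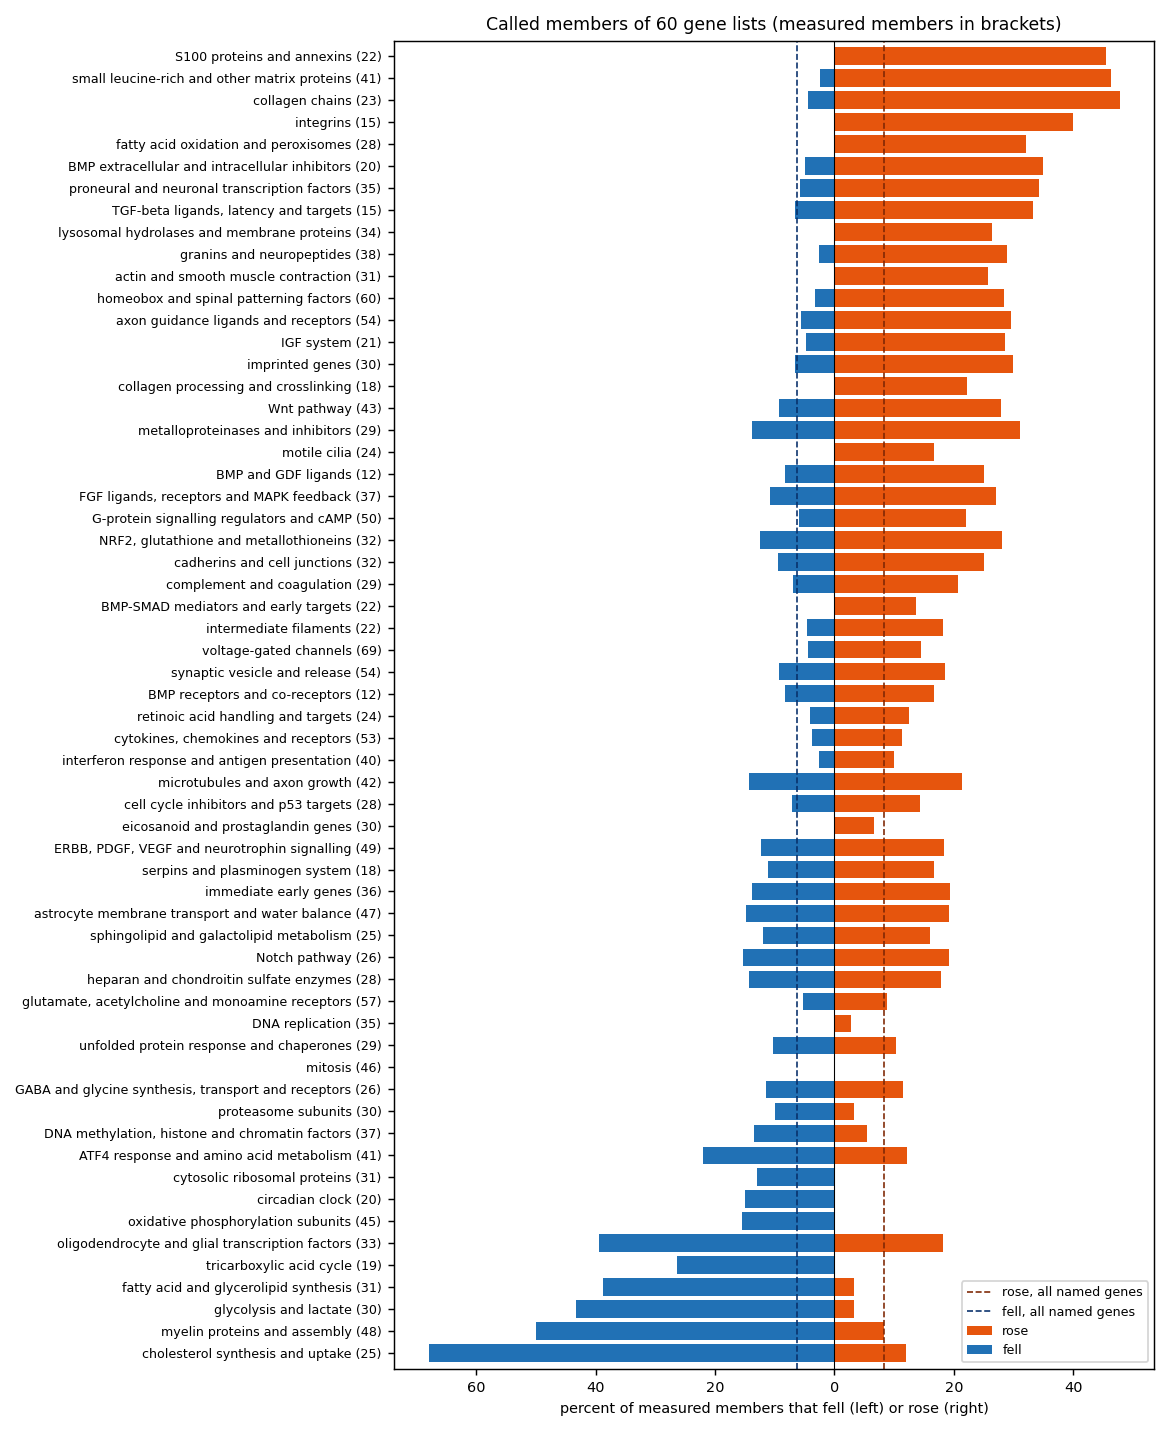
Percent of the measured members of 60 gene lists that rose (right, orange) or fell (left, blue) in the paired limma fit, with the shares over all named genes, 8.32% and 6.34%, as dashed lines. Collagen, matrix and S100 lists are at the top, cholesterol, myelin and glycolysis lists at the bottom, and no mitosis gene was called.

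Signals between cells changed in both directions. Of 43 Wnt genes 12 rose and 4 fell (Tcf7l2, Sfrp2, Lgr5 and Sfrp1), with a median of 0.035. There were 2 falls without pair 1, 3 or 4. The receptor Fzd6 rose by 1.91 ± 0.19 (pairs 1.31 to 2.57) from 7.21 to 8.73 to 9.16 to 11.09, without overlap, and Dkk3, a secreted modulator, by 1.43 ± 0.19. The feedback genes of canonical Wnt signalling Axin2, Nkd1 and Lef1, named after their values were seen, rose by 0.87, 1.22 and 1.47. Of 26 Notch genes 5 rose (19.2%) and 4 fell (15.4%), against 8.32% and 6.34% of all named genes. With any 1 pair left out 2 or 3 rose. Nrarp and Hes5, which Notch induces, were lower on their brightest probe sets. Nrarp differed by -1.75, -2.25, -2.28, -1.10, -1.13 and -1.66 without overlap and Hes5 by -1.3, -2.83, -2.21, -1.3, -0.70 and -1.06. Another Nrarp probe set differed by -1.82 and was called, and a dim one by -0.50 and was not. A dim Hes5 probe set went the other way, by 0.23, and was not called. The ligand Dll4 rose by 1.45 ± 0.23. Hes1 and Hey1, also Notch targets, differed by 0.32 and -0.17 and were not called. Of 37 FGF pathway genes 10 rose (6 without pair 2) and 4 fell, with Fgf13 up by 1.28 ± 0.16 and the phosphatase Dusp15 and the Sprouty inhibitor Spry3 down by 2.45 and 1.10. Of 49 genes of other receptor kinases 9 rose (5 without pair 3) and 6 fell (2 without pair 2 and 3 without pair 4). Ret, the receptor of the GDNF family, rose by 2.57 ± 0.37 and Nrtn (neurturin), a ligand of that family, named after its values were seen, by 2.27 ± 0.36, while Pdgfra, the growth factor receptor of oligodendrocyte precursors, fell by 1.80 ± 0.26.

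In the insulin-like growth factor list 6 of 21 rose and 1 fell, and of 30 imprinted genes 9 rose and 2 fell, with H19, Igf2 and Igf2r among the risen members of both. Without pair 3 the imprinted rises were 5, and the fall in the growth factor list was lost without pair 3 or 5. The imprinted falls were 1 without pair 2, 3, 4 or 6. H19, a maternally expressed noncoding RNA, was at 10.37 to 11.53 on the controls (median 11.14) and at up to 16.25 with BMP (median 13.80), without overlap, and gained 4.91, 4.50, 2.91, 1.63, 1.59 and 2.11. Igf2, the neighbouring paternally expressed growth factor, gained 5.22, 4.90, 3.35, 0.74, 1.24 and 1.04 on its brightest probe set. The other 3 Igf2 probe sets, with group means of 7.09 to 7.89, differed by -0.10 to -0.22 and were not called, so the median over the 4 was -0.21, and without pair 3 the call was lost (adjusted p = 0.0588 in the limma fit). Igf2r, which clears Igf2 from the cell surface, gained 1.90, 1.51, 1.16, 1.23, 0.75 and 0.52, and Grb10, an adaptor that restrains insulin signalling, 1.0, 1.54, 1.03, 0.50, 0.85 and 1.0. Ndn fell by 0.61 ± 0.11 without overlap, and Igfbp7 rose by 1.85 ± 0.30.

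None of 46 mitosis genes was called in the limma fit (4 had an unadjusted p under 0.05), and 1 of 35 replication genes rose, Fen1 (9 had an unadjusted p under 0.05). Without pair 5 the replication rises were 11, and without pair 1, 2, 3 or 6 there were none. The medians of the mitosis list were -0.60, 1.79, 1.58, 0.05, -0.16 and 0.16, so pairs 2 and 3 were high and pair 1 low. Mki67, a marker of cycling cells, differed by -0.53, 1.91, 2.35, -0.13, -0.34 and 0.33. Of 40 interferon and antigen presentation genes 4 rose (10%) and 1 fell (2.5%), of 53 cytokine and receptor genes 6 rose (11.3%) and 2 fell (3.77%), and of 30 prostaglandin genes 2 rose (6.67%) and none fell, against 8.32% and 6.34% of all named genes. The 6 cytokine rises were 1 without pair 1 or 3 and 2 without pair 2 or 4, the 4 interferon rises were 2 without pair 1, 2 or 3, the interferon fall was lost without any 1 pair, and 1 prostaglandin rise was left without pair 2 or 5. Ifitm3 gained up to 4.89 but fell in 1 pair, and its call was lost without pair 1, 2, 3 or 6 (adjusted p up to 0.108). Cxcl13, a B cell chemokine, rose by 2.22 ± 0.48 without overlap, and Ifitm2 by 1.46 ± 0.16. Of 29 chaperone genes 3 rose and 3 fell (10.3% each), near the shares of all named genes. The rises were Hspb1, Cryab and Hsph1, and the falls Sdf2l1, Xbp1 and Sel1l, 3 genes of the endoplasmic reticulum's stress response. Hsph1 lost its call without pair 1, 2, 3 or 4 and Sel1l without 3, 4 or 6 (adjusted p up to 0.0922 and 0.0699).

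Markers of cell types were read from 10 lists. Of 9 oligodendrocyte precursor markers 8 fell, Cspg4 by 1.40 ± 0.16, and Vcan rose by 0.28. Their summed intensity was 137538 to 190712 on the controls and 49890 to 136920 with BMP, without overlap. Of 14 oligodendrocyte markers 8 fell and Aspa rose, a call lost without pair 1, 3 or 4 (adjusted p up to 0.07). Of 22 neuronal markers 9 rose, Calb2 (calretinin) by 1.93 ± 0.22 and Stmn2 by 1.17 ± 0.13 among them, and Elavl3 fell, and the summed intensity of all 22 overlapped, at 135945 to 145627 and 111911 to 188580. Of 16 astrocyte markers Aqp4 and Gfap rose (12.5%, against 8.32% of all named genes) and none fell. Without pair 4 there were 4 rises, and without pair 5 there were 3 falls. Aqp4, the water channel of astrocyte endfeet, gained 3.98, 2.51, 2.14, 2.54, 1.76 and 1.04. Gfap (glial fibrillary acidic protein) was at 8.39 to 14.89 on the controls and at 13.56 to 15.43 with BMP and gained 5.17, 3.69, 3.84, 0.44, 0.16 and 0.68, a call lost without any 1 of pairs 1, 2, 3 and 6 (adjusted p up to 0.13). Other astrocyte markers, Aldh1l1 (-0.96 ± 0.31) and Slc1a3 (-0.17 ± 0.14), were not called. Of 7 ependymal markers Foxj1, Rsph1 and Tekt1, which serve motile cilia, rose and none fell, the call of Tekt1 being lost without any 1 pair other than pair 4 (adjusted p up to 0.112). The summed intensities of all 7, at 1308 to 1776 on the controls and 1729 to 4058 with BMP, overlapped. Of 11 markers of Schwann cells and neural crest Gfra3 rose and Sox10 fell (9.09% each, near the 8.32% and 6.34% of all named genes). The Gfra3 call was lost without any 1 pair other than pair 2 (adjusted p up to 0.102 in the limma fit). Sox10 is also counted among the fallen oligodendrocyte factors. The sums over the 11, 21108 to 33557 and 11779 to 19696, did not overlap. Only 2 of the 11 reached the table median in either group mean, and the median difference of the list was 0.27.

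All 16 microglial and all 11 endothelial markers had mean levels below the table median in both groups and none was called, although 2 endothelial markers had an unadjusted p under 0.05 and 1 rose without pair 5. Their summed intensities were 1507 to 2230 and 1129 to 1841 on the controls, and 1352 to 2366 and 1003 to 2496 with BMP. Of 16 fibroblast and meningeal markers the collagens Col1a1, Col1a2 and Col3a1 and Mgp rose and Pdgfra fell, Mgp losing its call without pair 1 or 6 (adjusted p up to 0.0561), with summed intensities of 24500 to 51289 and 17273 to 50792. Of 12 pericyte and smooth muscle markers Tagln alone was called, as risen (8.33%, against 8.32% of all named genes). Its call was lost without pair 1, 2, 3 or 6 (adjusted p up to 0.113 in the limma fit). The sum of the 12 was 5656 to 10804 on the controls and 7864 to 52960 with BMP. The part of these cells in the matrix, actin and S100 counts was not tested.

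Set directly against the 6 CNTF arrays in a fit of all 18 arrays, 2583 of 14217 named genes differed (18.2%). All 15 of the largest falls were lower with BMP than with CNTF as well. Of the 15 largest rises 12 differed, but only 8 were higher with BMP. Cryab was 3.59 ± 0.51 higher with BMP than with CNTF and Ecrg4 3.61 ± 0.28 higher. Hspb1, H19, Crym and Igf2 were lower with BMP than with CNTF, with differences of -2.78, -2.79, -1.79 and -3.62, while S100a11, Anxa2 and Ccn2 did not pass (differences of 0.62, 0.12 and 1.71). Cyp26b1 and Slit1 were higher with BMP by 2.22 and 2.39, and Nrarp and Hes5 did not pass, at -0.35 and -0.27. These values share the BMP arrays with the comparison against control, and are given side by side only.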

How the data were processed

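The deposited table holds linear intensity values of 31099 rat probe sets on 18 arrays. The 2% trimmed mean of every array lies between 2500.7 and 2500.8 and the array medians between 666.5 and 817.2, so the deposited values share a common mean, and how they were made is not given in the sources used here.

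With 57 control probe sets left out, log2(intensity + 116.655) of the 12 BMP and control arrays was fitted with limma 3.58.1 in R 4.3.3, with the title number as a block, a trend of variance with intensity, and Benjamini-Hochberg adjustment over 31042 probe sets. Every adjusted p is from this two-sided test. The pairing comes from the titles. Deviations of same-numbered arrays from their group means correlated at 0.275, 0.121, 0.38, 0.463, 0.30 and 0.279, and each array was closest to its own number in 6 of 6 cases.

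Symbols came from the platform annotation. Of the probe sets, 20826 have 1 symbol, 436 several and 9780 none, and RefSeq's GRCr8 table changed 0 symbols. A gene is its brightest probe set. Genes were named by rule: called, of the same sign in 6 of 6 pairs and reaching the table median, the 15 largest rises and falls and the 10 of each with the smallest p, up to 4 members per list, and genes moving from below the 40th percentile to above the median. Genes outside this rule were picked with their values in view. Members and lists were chosen with earlier results of these data known. Alternatives were the pairing, the arrays fitted, the constant, a filter on dim probe sets, 2 normalizations, the variance trend, the probe set of a gene and each pair left out.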

Additional observations from a re-analysis of the deposited data

Results flagged for a closer look

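The levels of each named gene were screened in the control and in the BMP group for an array far from the other 5 by Dixon's criterion. This was so in 30 of 430 groups, and chance places about 1 in 20 groups there. Control array 1 accounted for 10 of the 30 and BMP array 1 for 6.

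Control array 1 was low for genes of the oligodendrocyte lineage and myelin. It read 13.68 for Mbp, against 15.90 on the nearest other control, 11.31 for Cldn11 (nearest 14.10), 10.06 for Mag (12.60), 11.10 for Tppp (12.69), 11.11 for Myrf (12.64), 10.64 for Gal3st1 (11.71) and 10.27 for Evi2a (11.36). It was also low for Map7, at 11.06, Larp6, at 9.92, and Acta2, at 8.97. BMP array 1 was low for Mbp at 9.33 (nearest 13.59), Cldn11 at 8.54, Dusp15 at 8.48 (10.53) and Larp6 at 8.59 (9.48), and high for Gdf10 at 10.14 and Lef1 at 11.68. The paired difference of Mag in pair 1, -2.05, was the smallest of its 6 pairs, and that of Mbp, -4.35, the largest.

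Array 6 was low among the controls for Kitlg at 10.01 and high for Aspa at 11.53 and Mylk at 11.42. With BMP, array 6 was high for Cspg4 at 10.65, Tcf7l2 at 13.96 and Ugt8 at 12.13, and low for Neurod1 at 7.80. Among the remaining controls, array 2 was high for Gad2 at 8.50 and Scg3 at 13.92, array 3 high for Dkk3 at 13.04 and low for Kcnip3 at 11.59, array 4 low for Foxp1 at 9.88 and array 5 high for Sqle at 14.68. BMP array 2 was high for Mgp at 13.10.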

How the results depend on the processing

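With no replicate block, 1521 probe sets were called in place of 3775, 889 higher and 632 lower, with 156 of the 243 genes that met the naming rule and 260 list genes. With all 18 arrays and no replicate block the counts were 1865, 1067 higher and 798 lower, and 304 list genes. The replicate block therefore decides many calls, and 54 of the 193 called genes named in the text lost theirs without it. Subtracting array medians gave 3209 lower calls, and leaving out the intensity trend gave 982. At least 2-fold, the table median as the constant left 360 probe sets, 231 higher and 129 lower, and leaving out dim probe sets left 424 higher. Leaving out 1 pair gave 2333 to 3244 probe sets, 1349 to 1852 higher and 984 to 1392 lower, with the lowest counts without pair 3. The difference of Igf2 reversed to -0.21 with the median over its probe sets. Of the 193 called genes, 125 kept their calls in each of the 16 alternatives in which they were fitted, and 155 in each of those with the block. With dim probe sets left out, 192 of the 215 genes named in the text gave the same result and the others were not fitted. Dim genes are limited by the constant, which shrinks their differences, and the number of pairs limits the precision.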
